A study of Rattus norvegicus with 32 samples.

Results

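Cannabidiol (CBD) was compared with vehicle in rats that met an anxiety cue, using RNA sequencing of the nucleus accumbens shell. The comparison rests on 16 of the 32 libraries in the series, 8 labelled as CBD with the cue and 8 labelled as vehicle with the cue, and every gene in the count table was considered. All rats, controls included, were wild type and had been given shocks in fear conditioning. In the 16 libraries compared here the odour of lemon had been paired with the shocks, and the same odour was then present in tests of anxiety. CBD or vehicle was given ahead of those tests, and the tissue was taken after a last shock. The other 16 libraries came from rats conditioned with a neutral cue, again 8 with CBD and 8 with vehicle, and serve below as a second, separate CBD comparison. The dose, strain, sex and age are not given in the labels. Nothing in the labels says whether the libraries are of different rats, so the p-values reflect the variation among these libraries, which may partly be technical.

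CBD is a cannabis compound that does not intoxicate. It acts on many proteins in assays, among them ion channels of the TRP family, the serotonin receptor encoded by Htr1a, the nuclear receptor encoded by Pparg and the enzyme that breaks down the endocannabinoid anandamide, encoded by Faah. The accumbens shell lies medially in the ventral striatum and takes part in reward, aversion and the response to conditioned cues. Its main cells are GABAergic medium spiny neurons, which carry dopamine D1 or D2 receptors and make the opioid peptide precursors prodynorphin or proenkephalin.

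The 16 libraries held between 13.6 and 24.0 M counted reads. Striatal identity was checked against Drd1, the D1 receptor, and Slc17a6, a glutamate transporter of subcortical neurons that medium spiny neurons lack. On the scale of counts per 1 M (CPM) of each library's total, Slc17a6 was at 47.0 in vehicle library 5, 32.96 in CBD library 2 and 20.004 in CBD library 7, and at no more than 7.26 in the other 13 libraries. The same 3 libraries had the lowest Drd1, at 97.4, 137 and 183 CPM, where the others had at least 279. They also lay highest on the first principal component of the 16 libraries, which held 31.9% of the variance. Alb, the albumin of liver, was at 30 CPM or more in vehicle libraries 1 and 4 and in CBD libraries 3, 4, 5 and 6. Plin1, the perilipin of fat cells, was at 6 CPM or more in vehicle libraries 2, 3 and 5 and in CBD libraries 1 and 2. Slc17a7, the glutamate transporter of cortical neurons, was at 58.3 CPM in CBD library 3. These libraries were kept in the values given below. Values without them stand beside many of the results, and those not shown can move with these libraries too.

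**Figure D1:**
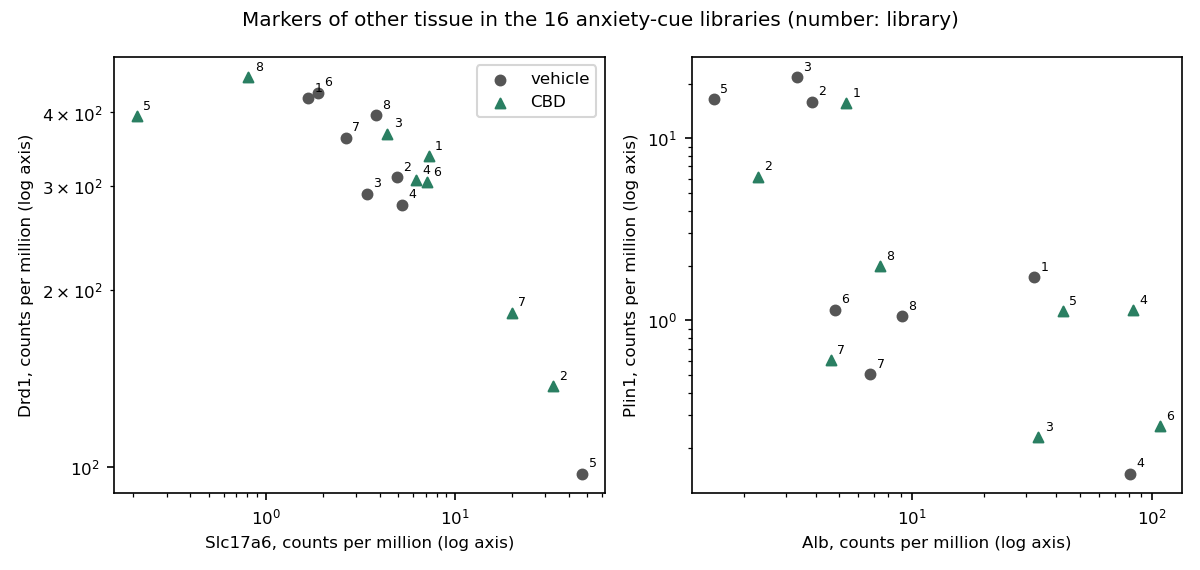
Markers of other tissue in the 16 anxiety-cue libraries, in CPM of the library's total on log axes: left, Drd1 against Slc17a6, and right, Plin1 against Alb. Grey circles are vehicle and green triangles CBD, and the numbers are library numbers. Vehicle library 5 and CBD libraries 2 and 7 lie apart at high Slc17a6 and low Drd1, and high Alb or high Plin1 occurs in both groups.

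No gene passed the test for a difference between CBD and vehicle with the anxiety cue. Of 17059 genes tested with edgeR's quasi-likelihood test, 0 (0%) had an adjusted p under 0.05, and the lowest adjusted p was 0.9999. DESeq2 and limma's voom also called 0 genes, at a lowest adjusted p of 0.9997 by DESeq2 and 0.138 by voom. At an unadjusted p under 0.05 edgeR had 270 genes (1.58%), of which 128 (0.75%) were higher with CBD and 142 (0.832%) lower. Uniform p-values would put 5% of genes there. At the same unadjusted level DESeq2 had 279 genes and voom 1388. No gene had groups free of overlap, in either direction (0%). In 255 of the 17059 genes all 8 CBD libraries lay above the vehicle median, and in 345 of them none did. For genes chosen by p, as most named below were, either pattern follows in part from that choice.

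The size of the differences was bounded as follows. The log2 difference (CBD minus vehicle, from the edgeR fit) lay between -0.25 and 0.27 for the middle of the distribution, from its 5th to its 95th percentile. It was above 0 for 8236 genes (48.3%) and below 0 for 8823 (51.7%). Its 95% interval stayed within 1.5-fold either way for 12945 genes (75.9%) and within 2-fold for 15858 (93.0%). Among the 10477 genes with a mean of at least 10 CPM, the interval stayed within 2-fold for 10410. Of the genes with that abundance, 3 had an estimate beyond 2-fold, namely Niban3, Ca3 and LOC688613. The spread between libraries was larger in the vehicle group, where the median SD of log2 CPM was 0.239 against 0.204 with CBD, and 11016 genes had the larger SD in vehicle. Without vehicle library 5 and CBD libraries 2 and 7 the medians were 0.197 and 0.167.

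**Figure D2:**
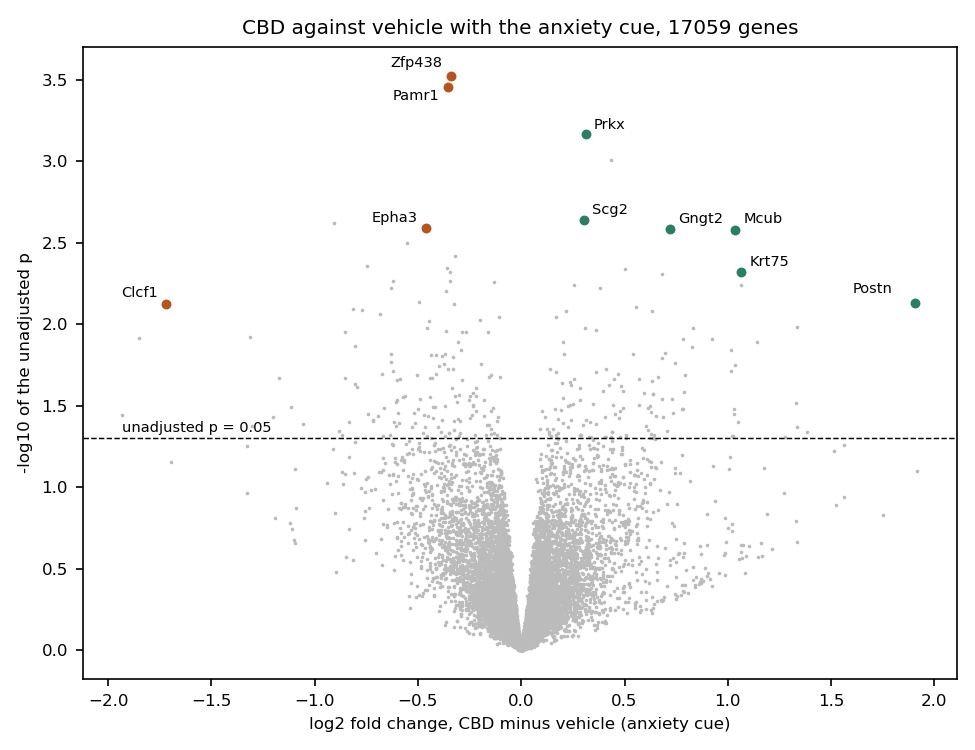
Each point is 1 of the 17059 genes, placed by its log2 difference (CBD minus vehicle with the anxiety cue) and the negative log10 of its unadjusted edgeR p. The dashed line is an unadjusted p of 0.05, which 270 genes pass, and no gene passes after adjustment. Labelled genes are among the 24 with the smallest p given in the text.

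The genes that came nearest to a difference are given as values, without a claim of change. CPM below are scaled by TMM, edgeR's correction for library composition. Prkx, a protein kinase of the cAMP-dependent family encoded on the X chromosome, had 10.3, 12.0 and 14.8 CPM as the lowest, median and highest vehicle library, and 13.8, 15.0 and 17.5 CPM with CBD. Its log2 difference was 0.31 (SE 0.0826, 95% interval 0.14 to 0.48, unadjusted p = 0.000675 by edgeR). All 8 CBD libraries lay above the vehicle median, and the ranges overlapped between 13.8 and 14.8 CPM. Scg2, secretogranin II, a protein of the dense-core vesicles that hold neuropeptides and the precursor of secretoneurin, was the most abundant of these genes. It was at 267, 325 and 365 CPM in vehicle libraries and at 346, 402 and 425 CPM with CBD. The log2 difference was 0.30 (SE 0.0912, 95% interval 0.12 to 0.49, unadjusted p = 0.00229 by edgeR). Again every CBD library exceeded the vehicle median, and the groups overlapped between 346 and 365 CPM. Vgf, a secreted neuropeptide precursor of the same vesicles, had the second smallest p of its list at a log2 difference of 0.28 (95% interval -0.01 to 0.56, unadjusted p = 0.0548 by edgeR), with 6 CBD libraries above the vehicle median. Its ranges of 204 to 379 CPM in vehicle and 238 to 433 CPM with CBD overlapped over most of their length.

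The promoters of Scg2 and Vgf are shown because both hold the cAMP response element, the 8-base palindrome TGACGTCA that CREB-family factors bind. All promoters available were searched, and both were picked for display after values were seen. Cartpt holds the element too and is not shown. The sequences shown are RefSeq sequences of the assembly GRCr8, with the element in capitals. Each is given 5′ to 3′ along the gene's strand as the 250 bases before the annotated start. The Scg2 window is chr9:88256867-88257116 on the minus strand, and the element begins 123 bases before the start. The Vgf window is chr12:25277021-25277270 on the minus strand, and the element begins 90 bases before the start.
Scg2: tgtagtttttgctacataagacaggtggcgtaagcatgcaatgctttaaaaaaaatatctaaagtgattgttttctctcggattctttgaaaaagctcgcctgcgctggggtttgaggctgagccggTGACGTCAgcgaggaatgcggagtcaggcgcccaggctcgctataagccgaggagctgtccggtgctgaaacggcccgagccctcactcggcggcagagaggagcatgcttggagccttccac
Vgf: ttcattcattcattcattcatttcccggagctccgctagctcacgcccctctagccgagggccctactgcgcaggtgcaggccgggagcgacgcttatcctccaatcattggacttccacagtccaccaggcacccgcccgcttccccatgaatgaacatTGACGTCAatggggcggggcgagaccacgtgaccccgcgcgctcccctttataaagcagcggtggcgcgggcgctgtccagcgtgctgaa

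The exact palindrome was rare. It occurred in 531 of 33469 rat promoters of that length (1.59%) and in 342 of the 12542 tested genes with a promoter in the table (2.73%). Among the 12 higher genes with the smallest p, 10 had a promoter and 1, Scg2, held the element. None of the 10 promoters found for the 12 lower genes held it. Of 18 promoters of neuropeptides and granins, 3 held it (16.7%), those of Cartpt, Scg2 and Vgf, and of 27 promoters of immediate early genes 5 held it (18.5%). A match is a description of the letters and not a binding site.

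Nrp1, neuropilin 1, a receptor for semaphorin 3A and vascular endothelial growth factor, was at 26.02, 32.1 and 41.3 CPM in vehicle libraries and at 34.7, 39.1 and 43.4 CPM with CBD. The log2 difference was 0.25 (SE 0.0855, 95% interval 0.08 to 0.43, unadjusted p = 0.00573 by edgeR). Every CBD library lay above the vehicle median, with overlap from 34.7 to 41.3 CPM. Mxra8, a cell-surface protein first described in matrix remodelling, was at a log2 difference of 0.38 (95% interval 0.12 to 0.64), with 8 of 8 CBD libraries above the vehicle median. Faf1, a Fas-associated adaptor, was at 0.22 and Ghdc at 0.55, each with 7 of 8 CBD libraries above the vehicle median. In none of these genes did the 2 groups separate.

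Larger estimates on the higher side belonged to scarce transcripts. Mcub, the inhibitory subunit of the mitochondrial calcium uniporter, had a median of 0.563 CPM in vehicle and 1.32 CPM with CBD, a log2 difference of 1.04 (SE 0.317, 95% interval 0.39 to 1.68). Its lowest CBD library, at 0.403 CPM, lay level with the lowest vehicle library at 0.400 CPM. Gngt2, a G-protein gamma subunit known from cone photoreceptors, was at 0.72 (95% interval 0.27 to 1.17) with all 8 CBD libraries above the vehicle median. Pik3c2g, a class II phosphoinositide 3-kinase, was at 0.68 and Krt75, a keratin, at 1.06. Postn, periostin, a matrix protein, had the largest estimate of the 24 genes at 1.91 (SE 0.667). That value rested on CBD library 2, at 10.7 CPM, where the CBD median was 0.627 CPM and the highest vehicle library 1.01 CPM. Without CBD library 2 the Postn difference was 0.56.

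On the lower side, Zfp438, a zinc-finger protein, had the smallest p of any gene. It was at 3.46, 4.03 and 4.28 CPM in vehicle libraries and at 2.74, 3.06 and 3.87 CPM with CBD. The log2 difference was -0.34 (SE 0.0838, 95% interval -0.51 to -0.17, unadjusted p = 0.000298 by edgeR). No CBD library reached the vehicle median, and the groups overlapped between 3.46 and 3.87 CPM. Pamr1, a secreted protein with a peptidase-like domain named for muscle regeneration, was at 25.5, 31.3 and 35.0 CPM in vehicle and at 20.98, 24.1 and 27.3 CPM with CBD. The log2 difference was -0.35 (SE 0.0885, 95% interval -0.53 to -0.17, unadjusted p = 0.00035 by edgeR). Here too no CBD library reached the vehicle median, and the overlap ran from 25.5 to 27.3 CPM.

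Epha3, an ephrin-A receptor, was at 10.0, 16.5 and 18.6 CPM in vehicle and at 8.73, 10.9 and 13.4 CPM with CBD, a log2 difference of -0.46 (SE 0.14, 95% interval -0.75 to -0.17). Dab1, the adaptor that carries the reelin signal, was at 40.3, 51.1 and 63.2 CPM in vehicle and at 34.0, 39.4 and 50.4 CPM with CBD, a log2 difference of -0.35 (SE 0.114, 95% interval -0.58 to -0.11). For both genes no CBD library reached the vehicle median, although the ranges overlapped.

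Other genes in the lower 12 covered unlike functions. Bms1, a GTPase of ribosome assembly, had the smallest SE of the 24 genes, at a log2 difference of -0.13 (SE 0.0438), with 0 of 8 CBD libraries above the vehicle median. Mgmt, the enzyme that repairs methylated guanine in DNA, was at -0.63 (95% interval -1.06 to -0.19) and also had 0 of 8. Ldlrad3, a membrane protein with low-density lipoprotein receptor repeats, was at -0.32, Fstl1, a secreted follistatin-like protein, at -0.36, and Sgcd, delta-sarcoglycan, at -0.36. Rgs12, a regulator of G-protein signalling, was at -0.50, and vehicle library 2 held its highest value, so that the difference was -0.31 without that library. Clcf1, a cytokine of the interleukin 6 family, was at -1.72 (95% interval -2.94 to -0.49) at a vehicle median of only 0.956 CPM. Vehicle libraries 6 and 2 held 5.17 and 3.63 CPM of Clcf1, against at most 1.02 CPM in the other vehicle libraries. Without vehicle library 6 the Clcf1 difference was -1.20. Tc2n was at -0.62. Of 23 genes examined among the 24 with the smallest p, 0 changed sign in any of 26 alternative settings. They were chosen by p from the same libraries, so a kept sign was likely beforehand and is no separate evidence of a difference. Removal of 1 library moved 2 of them by over 1.5 times, Postn and Rgs12. Leaving out groups of libraries moved Ldlrad3 to -0.21 (without those high in Plin1), Tc2n to -1.06 (without those high in Alb) and Postn to 0.25 (without those high in Plin1).

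**Figure D3:**
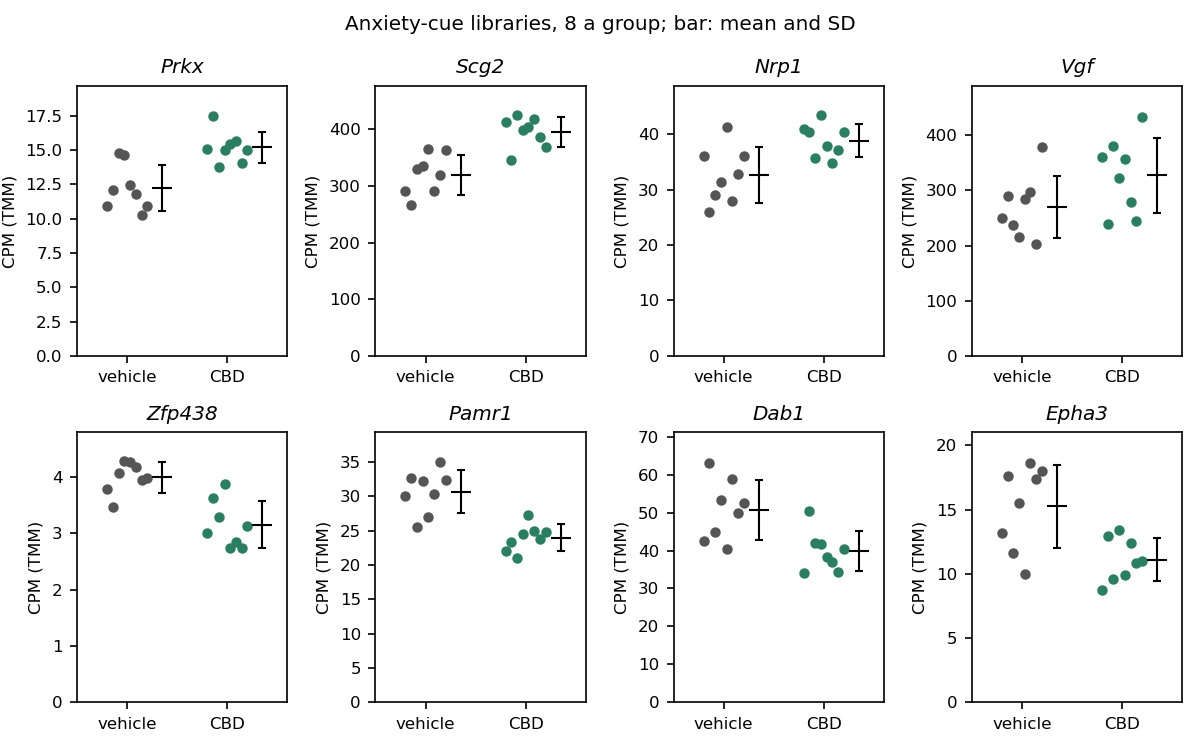
TMM-scaled CPM of 8 genes in each anxiety-cue library, vehicle in grey and CBD in green, with the mean and SD of the 8 libraries beside each group. Scg2, Prkx, Nrp1 and Vgf in the upper row are higher on average with CBD and Zfp438, Pamr1, Dab1 and Epha3 in the lower row are lower, and in all 8 genes the groups overlap.

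The largest estimates among genes with at least 10 CPM had wide intervals. Niban3 had a log2 difference of 1.01 (95% interval -0.12 to 2.13). Col3a1, a fibrillar collagen, was at 0.99 with all libraries and at -0.06 without CBD library 2, which held 65.8 CPM against a CBD median of 4.53. Alb was at 0.99 (95% interval -0.74 to 2.71), and at 1.98 without vehicle library 4 or 0.52 without CBD library 6. On the lower side LOC688613, a locus with no gene name, was at -1.12 (95% interval -2.72 to 0.48). The difference was -1.78 without the libraries high in Alb and -2.93 with voom. LOC688613 lay between 0.105 and 0.403 CPM in vehicle library 2 and CBD libraries 1, 2, 3 and 7. In the others it ran from 19.9 to 51.8 CPM in vehicle and from 21.1 to 28.8 CPM with CBD. The part of the near-absent libraries in its estimate was not tested. Ca3, a carbonic anhydrase of muscle and fat, was at -1.33 (-0.85 without vehicle library 3), Scd, stearoyl-CoA desaturase, at -0.81, Calb1, calbindin, at -0.63 and Jhy at -0.59. Jhy had an interval that left out 0, from -1.08 to -0.09, and 1 of 8 CBD libraries above the vehicle median. Without the libraries high in Alb, Niban3 was at 0.33, Calb1 at -1.04 and Jhy at -0.34, and without those high in Plin1 Scd was at -0.096. Several of these are genes of blood, liver or fat, whose levels differ between libraries within a group, and the part of such tissue in these values was not tested.

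Nuclear-encoded subunits of the respiratory chain stood slightly above 0, each within its error. These proteins pass electrons to oxygen and make ATP in the mitochondrial inner membrane. Of 43 subunits of complexes II to V tested, 42 had a log2 difference above 0 and 0 had an unadjusted p under 0.05, with a median of 0.041, where 48.3% of all genes lay above 0 and the median of all genes was -0.003. Complex I had 31 of 36 above 0 and a median of 0.037. The interval of each of these subunits stayed within 1.5-fold. Uqcrfs1, the Rieske protein of complex III, was at 0.10 (95% interval -0.03 to 0.24), Atp5mc3, a subunit of the ATP synthase ring, at 0.12 (95% interval -0.05 to 0.29), and Ndufs5 of complex I at 0.11, or 0.07 without CBD library 8. Cox4i1 of complex IV was at 0.02, with a sign that turned without vehicle library 3 or CBD library 8, and Ndufa8 of complex I at 0.06. The subunits of a complex share libraries and vary together, so the count above 0 is not a count of independent genes.

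Other mitochondrial lists were alike in size. Mitochondrial ribosomal proteins had 53 of 73 above 0 and a median of 0.040. In that list 2 genes had an unadjusted p under 0.05, Mrps26 at 0.13 and Mrpl21 at 0.18, each with all 8 CBD libraries above the vehicle median. Enzymes of the tricarboxylic acid cycle had 18 of 25 above 0 with a median of 0.029, where Idh1, the cytosolic isocitrate dehydrogenase listed with them, was at 0.15 (95% interval -0.14 to 0.44). Genes of mitochondrial dynamics and protein import had 24 of 34 above 0 and a median of 0.019. Over the removals of 1 library the lowest median of complex I was 0.00752 (CBD library 8 left out) and the highest 0.061 (vehicle library 5 left out), and that of complexes II to V stayed above 0 in all 26 alternative settings.

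Genes of lipid metabolism had small medians. The list for linoleic and other polyunsaturated fatty acids had 23 of 45 above 0, a median of 0.004 and 0 members at an unadjusted p under 0.05. Fads1 and Fads2, the desaturases that make arachidonic acid and related lipids, were at 0.04 (95% interval -0.16 to 0.24) and 0.05 (95% interval -0.27 to 0.37). Ptges, a prostaglandin E synthase, was at -0.84 (95% interval -1.73 to 0.06) at a vehicle median of 0.669 CPM, and at -0.49 without the libraries high in Plin1. Fatty acid beta oxidation had 16 of 26 above 0 with a median of 0.014, and cholesterol synthesis had 18 of 22 with a median of 0.036, which was -0.00172 without CBD library 7 and 0.077 without vehicle library 5.

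Of the list of chaperones and unfolded protein response genes, 31 of 34 members lay above 0, with a median of 0.053. Xbp1, a transcription factor of that response, was at 87.0, 104 and 126 CPM in vehicle and at 106, 118 and 123 CPM with CBD, a log2 difference of 0.14 (95% interval -0.01 to 0.29). Pdia3, a disulfide isomerase of the endoplasmic reticulum, was at 0.10 (95% interval -0.01 to 0.21). For both, all 8 CBD libraries exceeded the vehicle median and lay within the upper part of the vehicle range or just past it. Oxidative stress defence had 22 of 30 above 0 with a median of 0.053. Prdx4, a peroxiredoxin of the secretory pathway, was at 0.20 (95% interval 0.02 to 0.39, unadjusted p = 0.0285 by edgeR) with 8 of 8 CBD libraries above the vehicle median. Ucp2, an uncoupling protein, was at 0.33 (unadjusted p = 0.0493 by edgeR) and at 0.17 without CBD library 2, the highest at 43.0 CPM. Without the libraries high in Alb or in Plin1 the Ucp2 difference was 0.59 or 0.15. Cytosolic ribosomal proteins had 51 of 74 above 0 and a median of 0.023. They have many near-identical copies, and the strand setting of the read counter is not given here, so single members are uncertain. Of all 28 list medians 12 kept their sign in every one of the 26 alternative settings. Those 12 were the lists of complex I, complexes II to V, mitochondrial ribosomal proteins, mitochondrial dynamics, chaperones, oxidative stress defence, cytosolic ribosomal proteins, immediate early genes, neuropeptides, endothelial cells, septal markers and adipocytes. The other 16 turned sign in at least 1 setting.

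**Figure D4:**
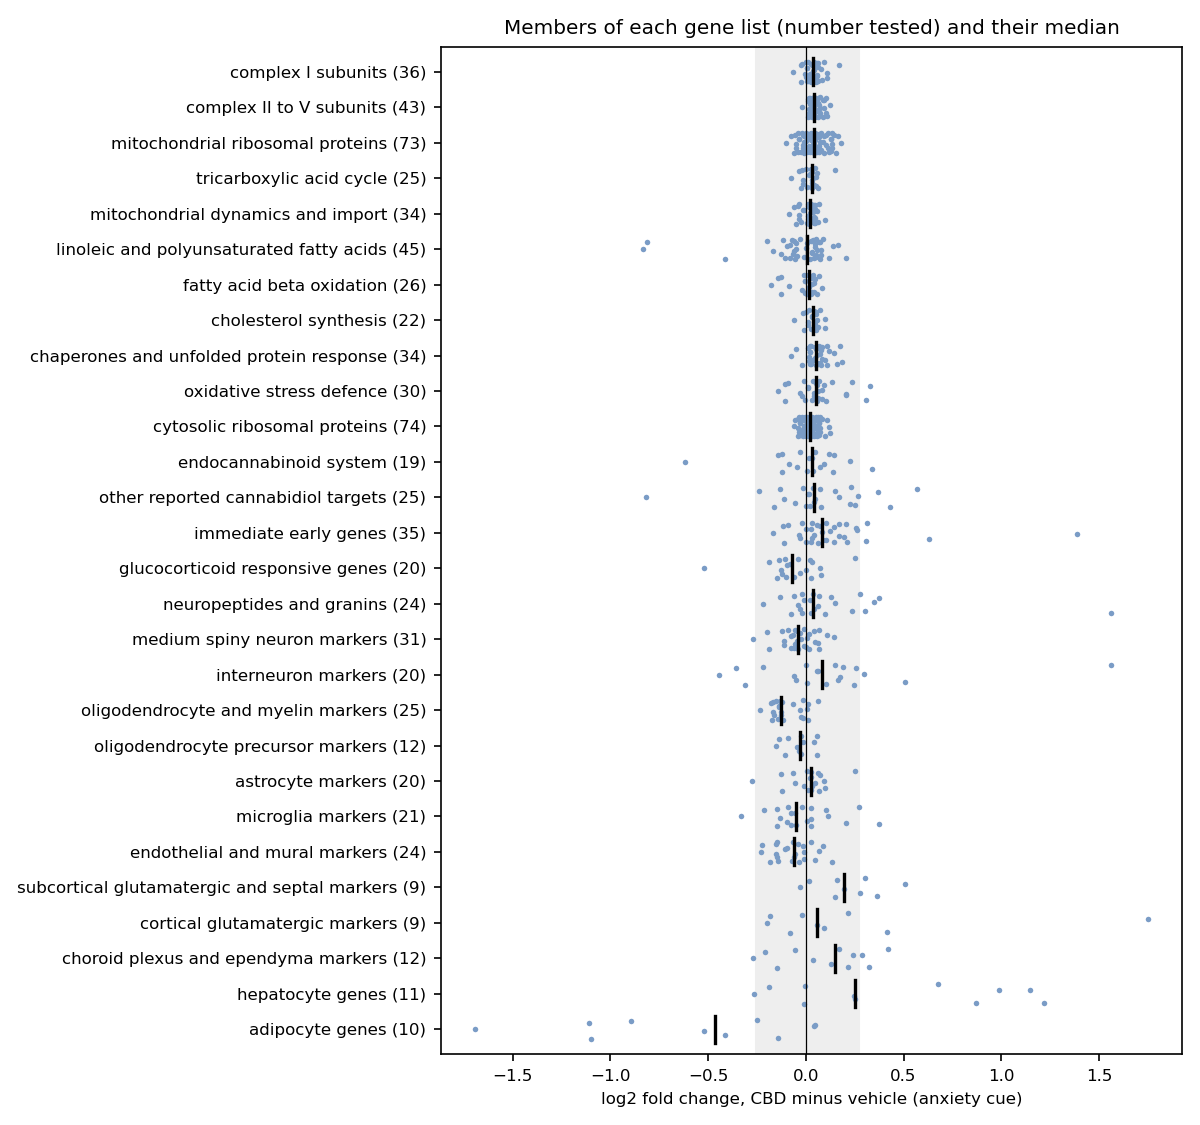
Log2 difference (CBD minus vehicle, anxiety cue) of every tested member of 28 gene lists, 1 blue point a gene, with the list median as a black bar and the number of members in brackets. The grey band spans the 5th to the 95th percentile of all genes tested, -0.25 to 0.27. Nearly all medians lie inside the band, the exception being adipocyte genes at -0.47, and no member passed the test.

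The endocannabinoid system and the reported targets of CBD showed no member at an unadjusted p under 0.05. Endocannabinoid genes had 12 of 19 above 0 and a median of 0.031. Cnr1, the CB1 receptor, was at 41.9, 51.9 and 111 CPM in vehicle and at 51.7, 67.8 and 115 CPM with CBD, a log2 difference of 0.34 (95% interval -0.41 to 1.09). Its top vehicle value came from library 5, one of the 3 high in Slc17a6, and without that library the difference was 0.53. Faah was at 40.0, 43.6 and 51.9 CPM in vehicle and at 35.4, 40.4 and 43.5 CPM with CBD, a log2 difference of -0.14 (95% interval -0.31 to 0.03). No CBD library passed the vehicle median of Faah, by a margin small against the range. Mgll, the lipase that breaks down 2-arachidonoylglycerol, was at 0.05 (95% interval -0.32 to 0.42). The member with the smallest p was Ptpn22, a phosphatase also known from lymphocytes, at -0.62.

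Reported targets of CBD had 18 of 25 members above 0 and a median of 0.043, with 3 further members, Trpa1, Trpm8 and Gpr18, too low to test. Trpv2, a TRP channel that CBD opens in assays, was at 9.88, 13.8 and 23.2 CPM in vehicle and at 15.3, 17.3 and 23.3 CPM with CBD. Its log2 difference was 0.37 (95% interval -0.01 to 0.75), and all 8 CBD libraries lay above the vehicle median with a shared upper end. That upper end was vehicle library 5 and CBD libraries 2 and 7 (21.8 CPM), those high in Slc17a6. Without vehicle library 5 the Trpv2 difference was 0.505. Htr1a was at 0.26 (95% interval -0.82 to 1.34) and Adora2a, an adenosine receptor of D2-type medium spiny neurons, at -0.06 (95% interval -0.72 to 0.61). Pparg was at -0.82 (95% interval -2.33 to 0.70), and at -0.11 without vehicle library 3, one of those high in Plin1. The intervals of Htr1a, Adora2a and Pparg admit changes of more than 1.5-fold either way.

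Immediate early genes, which neurons transcribe within minutes of activity, had 28 of 35 members above 0 and a median of 0.080. That median was 0.017 without CBD library 1 and 0.161 without CBD library 7. Leaving out the libraries high in Plin1 gave 0.00999, and leaving out those high in Slc17a6 gave 0.192. Fos was at 6.85, 12.1 and 23.5 CPM in vehicle and at 10.2, 13.5 and 22.3 CPM with CBD, a log2 difference of 0.25 (95% interval -0.31 to 0.82). Arc was at 0.10 (95% interval -0.71 to 0.91), Egr1 at 0.02 (95% interval -0.50 to 0.55) and Npas4 at 0.20 (95% interval -0.54 to 0.94). Within each group the highest Fos library had more than 2 times the level of the lowest. Atf3, a factor of the stress response, was the only member at an unadjusted p under 0.05, at 1.39 (95% interval 0.03 to 2.74). It was scarce, with a vehicle median of 0.441 CPM, and its difference was 0.76 without CBD library 2 and 0.55 without the libraries high in Plin1.

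Glucocorticoid-responsive genes, which follow the stress hormone corticosterone, had 13 of 20 members below 0 and a median of -0.070. Plin4 had the smallest p, at a log2 difference of -0.52 (95% interval -0.999 to -0.04), with 1 of 8 CBD libraries above the vehicle median. It was at -0.30 without the libraries high in Alb and at -0.79 without those high in Plin1. Plin4 is also a fat cell gene and a member of the adipocyte list, which lay below 0 too, as given below. The vehicle median of Plin4 was 3.11 CPM. Vehicle libraries 2, 3 and 5, high in Plin1, held 1.51, 3.42 and 1.74 CPM of it. The part of fat tissue in the Plin4 difference was not tested. Fkbp5, the co-chaperone of the glucocorticoid receptor, was at 43.3, 98.5 and 114 CPM in vehicle and at 56.2, 75.7 and 117 CPM with CBD. The log2 difference was -0.19 (95% interval -0.56 to 0.18), and it was -0.30 without vehicle library 5, the lowest of its group.

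Among neuropeptides and granins 15 of 24 members lay above 0 with a median of 0.039, and Scg2 was the only one at an unadjusted p under 0.05. Penk, proenkephalin, was at 216, 706 and 955 CPM in vehicle and at 292, 637 and 996 CPM with CBD, a log2 difference of -0.08 (95% interval -0.68 to 0.52). Pdyn, prodynorphin, was at 0.06 (95% interval -0.51 to 0.63). Markers of medium spiny neurons had 11 of 31 above 0 and a median of -0.039. Drd1 was at 94.8, 340 and 439 CPM in vehicle and at 132, 319 and 475 CPM with CBD, a log2 difference of -0.07 (95% interval -0.66 to 0.53). Drd2, the D2 receptor, was at 0.00196 (95% interval -0.56 to 0.57). The lowest value of all 4 genes in the vehicle group was that of library 5. Without the libraries high in Slc17a6 the list median was 0.043. Gad1, the main GABA-synthesizing enzyme of these neurons, was less variable, at 653, 697 and 859 CPM in vehicle and 761, 789 and 865 CPM with CBD. Its log2 difference was 0.14 (95% interval -0.01 to 0.30), and all 8 CBD libraries exceeded the vehicle median.

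Interneuron markers had 14 of 20 members above 0 and a median of 0.083. The median was 0.0033 without CBD library 7 and 0.174 without vehicle library 5, both high in Slc17a6, and -0.023 with covariates for septal and cortical markers. Vip, a peptide of a small interneuron class, had the largest estimate of the list at 1.56 (95% interval -0.04 to 3.16) at a vehicle median of 0.233 CPM, with 8 of 8 CBD libraries above that median. Nos1, the nitric oxide synthase of another class, was at -0.36 (95% interval -0.82 to 0.10), and at -0.14 without vehicle library 2, which held 130 CPM. The signs of Drd1, Penk, Adora2a, Htr1a, Mgll, Pdyn, Arc, Egr1, Npas4 and Drd2 each turned on the removal of at least 1 library.

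Oligodendrocyte and myelin markers lay below 0 in 21 of 25 members, with a median of -0.128 and 0 members at an unadjusted p under 0.05. The median was -0.196 without CBD library 2 and -0.033 without vehicle library 5. In bulk tissue fewer cells of a type and less RNA per cell cannot be told apart. Mbp, myelin basic protein, was at 2229, 3132 and 4599 CPM in vehicle and at 1845, 2698 and 3870 CPM with CBD, a log2 difference of -0.17 (95% interval -0.48 to 0.15). Mog, a myelin surface glycoprotein, was at -0.24 (95% interval -0.54 to 0.07) and Cnp, an enzyme of myelin, at -0.17. Each had 2 of 8 CBD libraries above the vehicle median. Vehicle library 5 was the highest of its group for Mbp, and without it the differences were -0.07 for Mbp, -0.15 for Mog and -0.08 for Cnp. Without the libraries high in Plin1 the list median was 0.023, above 0. The summed level of the list ran from 6717 to 14138 CPM in vehicle and from 5887 to 11979 CPM with CBD.

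Other glial and vascular lists showed small medians. Oligodendrocyte precursors had 3 of 12 above 0 and a median of -0.031, astrocytes 14 of 20 and 0.025, microglia 9 of 21 and -0.051, and endothelial and mural cells 5 of 24 and -0.063 (-0.0019 without the libraries high in Slc17a6). In the astrocyte list Ppp1r3c, a glycogen-targeting subunit of protein phosphatase, was at -0.13 (95% interval -0.27 to 0.01) with 0 of 8 CBD libraries above the vehicle median, and at -0.064 without the libraries high in Alb. Microglial genes did not go one way: Tmem119, a marker of resident microglia, was at 0.27 (95% interval -0.06 to 0.60, or 0.43 without the libraries high in Alb and 0.17 when those high in Slc17a6 were left out) and Ptprc, the leukocyte antigen CD45, at 0.37 (95% interval -0.02 to 0.77, or 0.24 without CBD library 2), where the list median was below 0. In the endothelial list Abcb1a, the drug efflux pump of the blood-brain barrier, was at -0.23 (95% interval -0.47 to 0.01) and Cdh5, the cadherin of endothelial junctions, at -0.19 (95% interval -0.43 to 0.06).

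Markers of tissue outside the shell follow. Subcortical glutamatergic and septal markers had 8 of 9 tested members above 0 and a median of 0.194, with a summed level of 72.6 to 211 CPM in vehicle and 70.8 to 189 CPM with CBD. The median was 0.095 without CBD library 2, 0.568 without vehicle library 5 and 0.291 without the libraries high in Slc17a6. Cortical glutamatergic markers had 5 of 9 above 0 and a median of 0.055, and Slc17a7 itself was at 1.75 with CBD library 3 and at -0.08 without it. Choroid plexus and ependymal markers had 8 of 12 above 0 and a median of 0.147, summing to 14.1 to 29.6 CPM in vehicle and 16.97 to 27.2 CPM with CBD, and the median was -0.026 without the libraries high in Alb. Hepatocyte genes had 7 of 11 above 0 with a median of 0.251, which was -0.009 without the libraries high in Alb. Their sum ran from 314 to 662 CPM in vehicle and from 299 to 688 CPM with CBD. That sum includes Tf, transferrin, which oligodendrocytes also make. Adipocyte genes had 8 of 10 below 0 and a median of -0.467, which was -0.070 without the libraries high in Plin1 and -1.05 without CBD library 1. Plin1 was at -1.10 (95% interval -2.88 to 0.68), or -0.61 without vehicle library 3 and -2.15 without CBD library 1. The adipocyte sum ran from 42.0 to 139 CPM in vehicle and from 42.8 to 105 CPM with CBD. Of the members of these 5 lists present in the count table, 1 was at 0 in all 16 libraries, the liver gene Cyp3a2. The part of these tissues in the differences above was not tested beyond leaving libraries out.

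With the neutral cue, the CBD and vehicle libraries are separate from the 16 described so far. There edgeR also called 0 genes (0%), with 3852 (22.6%) at an unadjusted p under 0.05 and a lowest adjusted p of 0.0697, where DESeq2 called 349 and voom 1. The difference between the CBD effects under the 2 cues was tested as an interaction. It was called for 0 genes (0%) by edgeR, at a lowest adjusted p of 0.321, with 2353 genes (13.8%) at an unadjusted p under 0.05, and DESeq2 called 11 genes. Across genes the log2 differences of the 2 comparisons had a Pearson r of 0.108 and a Spearman rho of -0.187, which differ in sign, and 6945 genes (40.7%) had the same sign. Genes are not independent, and both comparisons come from 1 fit with a shared estimate of spread.

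Mcub had the smallest interaction p. Its log2 difference was 1.04 with the anxiety cue and -1.20 with the neutral cue, an interaction of 2.24 (SE 0.448, unadjusted p = 2.1e-05, adjusted p = 0.321 by edgeR). Scg2 was at 0.30 with the anxiety cue and -0.06 with the neutral cue, and Prkx at 0.31 and -0.12. Ucp2 was at 0.33 and -0.60, and Bms1 at -0.13 and 0.12. Zfp438 was below 0 with both cues, at -0.34 and -0.19. The adjusted p for the interaction of these genes was at least 0.321 in the edgeR fit to all 32 libraries.

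The respiratory chain lists lay on opposite sides of 0 under the 2 cues. With CBD, complexes II to V had 42 of 43 members above 0 under the anxiety cue and 1 of 43 under the neutral cue, with medians of 0.041 and -0.140. Complex I had 31 and 1 of 36, with medians of 0.037 and -0.133. At the level of single genes the interaction had an unadjusted p under 0.05 for 7 of 43 and 8 of 36 subunits and an adjusted p under 0.05 for 0, beside 13.8% of all genes at the unadjusted level. Cytosolic ribosomal proteins had medians of 0.023 and -0.144, and chaperones 0.053 and -0.122. Medium spiny neuron markers were at -0.039 with the anxiety cue and 0.503 with the neutral cue, interneuron markers at 0.083 and -0.664, and septal markers at 0.194 and -0.888. The neutral-cue libraries held an unequal share of marked libraries: 3 vehicle and 0 CBD libraries were high in Slc17a6, against 1 and 2 with the anxiety cue. For Plin1 these were 5 and 0, against 3 and 2, and for Alb 0 and 4, against 2 and 4. Without the libraries high in Plin1, which leaves 3 neutral-cue vehicle libraries, the interaction was called for 1475 genes by edgeR, and the part of other tissue in it was not tested further. Immediate early genes were at 0.080 and 0.471, and oligodendrocyte markers were below 0 under both cues, at -0.128 and -0.395.

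**Figure D5:**
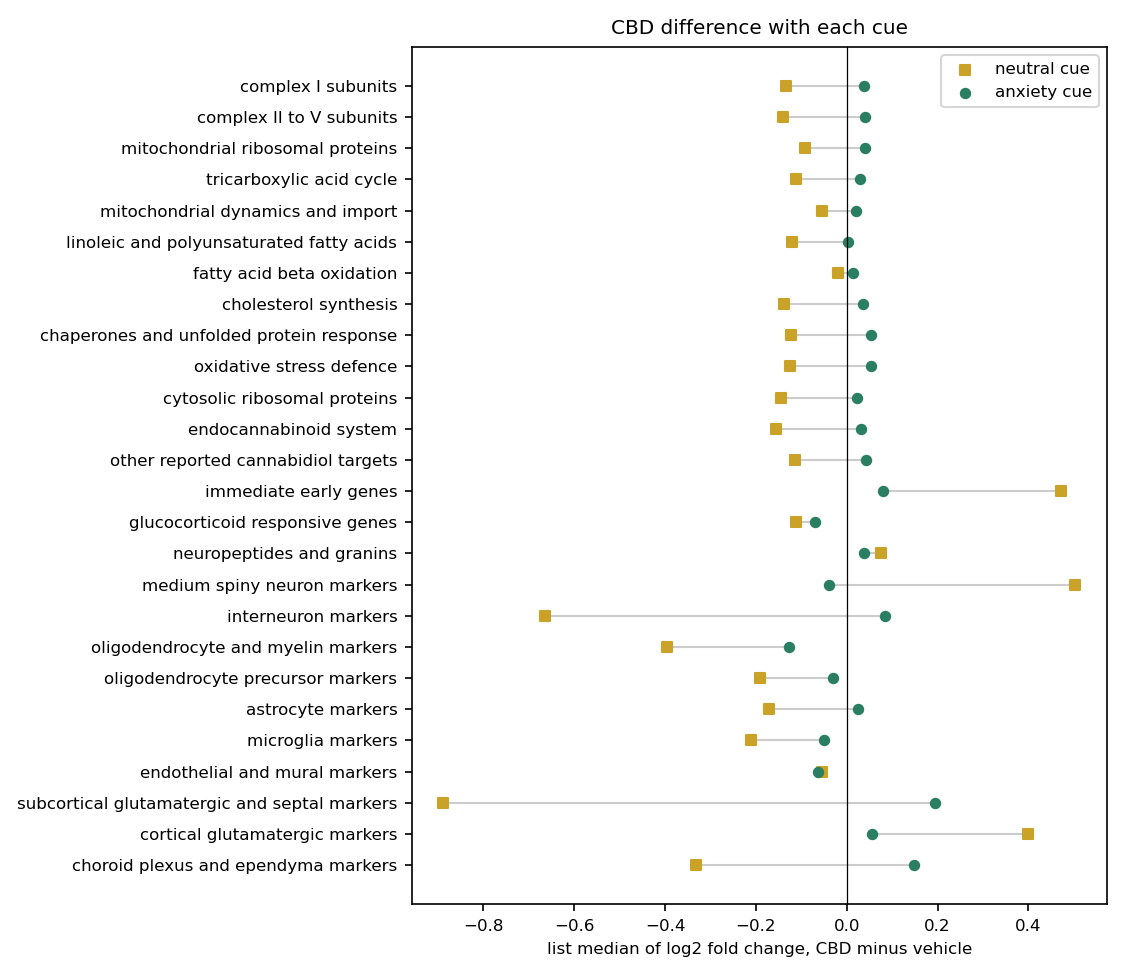
Median log2 difference (CBD minus vehicle) of each gene list with the anxiety cue (green circles) and with the neutral cue (yellow squares), from 16 libraries each with none in common. Anxiety-cue medians lie between -0.128 and 0.194, and the neutral-cue medians of medium spiny neuron, interneuron and septal markers lie farther from 0, at 0.503, -0.664 and -0.888; hepatocyte and adipocyte lists are left out.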

How the data were processed

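Polyadenylated RNA of the rat nucleus accumbens shell was sequenced commercially with Illumina chemistry, per the labels' protocols. The authors deposited whole-number read counts for 34322 gene symbols in 32 libraries. The submitters' processing notes name STAR, featureCounts and DESeq2 without versions, and the builds mRatBN7.2 and Rnor_6.0 without roles. The strand setting is not stated there. Libraries were grouped by the treatment label, and numbers within a group follow the order of deposition and pair nothing. Of the symbols, 28874 (84.1%) matched RefSeq names, used for list synonyms and promoters. Over 112 pairs of libraries within groups, chi-square per degree of freedom was 5.56 to 112, so no pair agreed within sampling noise.

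In R 4.3.3, edgeR 4.0.16 filterByExpr kept 17059 genes and left out 17263. The 32 libraries entered 1 quasi-likelihood model with TMM scaling and 4 group means, so that the spread is shared (common biological coefficient of variation 0.215). The Benjamini-Hochberg adjustment covered all genes tested, and the threshold was 0.05. The alternatives were DESeq2 1.42.0, its size factors, voom of limma 3.58.1 with quality weights, 2 other filters, the 16 libraries alone, covariates for septal and cortical markers, and leaving out marked or single libraries. Marked libraries were left out of all 4 groups, those of the neutral cue included. The limits were 20 CPM for Slc17a6, 30 for Alb and 6 for Plin1, on each library's total. Anxiety-cue CBD library 7 was barely past the first, at 20.004 CPM, and CBD library 2 barely past the last, at 6.16 CPM. After TMM scaling that CBD library 2 was at 5.95 CPM of Plin1, so the scale decides its place. Scripts were tested on simulated data.

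Genes and lists were chosen with earlier results of these data known. Named were the 12 higher and 12 lower genes with the smallest p (locus-number symbols left out), 2 members of each list by p, a preset group such as Fos, Cnr1 and Mbp, and the 5 higher and 5 lower genes by fold at 10 CPM or more. Not all are printed, and 2 are not reported here. Chosen after values were seen were the promoter motif and the 2 promoters, the scale of CPM for marked libraries, the counts of CBD libraries above the vehicle median, the SDs without 3 libraries, the alternatives for the neutral-cue comparison and the genes drawn. Ttr and protein-coding mitochondrial genome genes are not analysed here.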

Additional observations from a re-analysis of the deposited data

Results flagged for a closer look

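For each printed gene the vehicle and the CBD libraries with the anxiety cue were examined for a single library far from the other 7, on the scale of log2(CPM + 0.1), by the ratio of its gap to the range. Of 160 groups of 8 libraries, 15 held such a library. The limit used is passed by about 1 in 20 independent groups by chance. These groups share the same libraries and partly hold tissue markers, so that rate is no yardstick here. Vehicle library 5, one of the 3 libraries high in Slc17a6, was the one in 10 of the 15. It was the lowest vehicle library for the medium spiny neuron genes Drd1 (94.8 CPM), Drd2 (54.0 CPM), Adora2a (79.3 CPM), Penk (216 CPM) and Pdyn (114 CPM), and for Mgll (109 CPM) and Fkbp5 (43.3 CPM). It was the highest for Slc17a6 (45.7 CPM), Cnr1 (111 CPM) and Faf1 (32.2 CPM). Vehicle library 8 was the lowest for the microglial gene Tmem119 (12.2 CPM) and the endothelial gene Cdh5 (7.28 CPM). CBD library 3 was the highest for the cortical gene Slc17a7 (58.9 CPM), and CBD library 8 the lowest for Ptges (0.0762 CPM). The locus LOC688613 was lowest of the vehicle group in library 2 (0.168 CPM). CBD libraries 1, 2, 3 and 7 were as low for it, at 0.191, 0.105, 0.403 and 0.357 CPM. These CPM are TMM-scaled.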

How the results depend on the processing

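The number of genes called with the anxiety cue was 0 under all 26 alternatives. The lowest adjusted p varied with the setting, at 0.138 by voom and at 0.608 by edgeR without libraries high in Plin1. Genes at an unadjusted p under 0.05 numbered 270 in the fit reported, 951 with no filter (533 higher), 1388 with voom, 564 with the marker covariates (239 higher), 434 and 552 when libraries high in Slc17a6 or in Plin1 were left out, and from 229 to 566 over removals of 1 library (vehicle libraries 7 and 5). With the 16 anxiety-cue libraries fitted alone, 359 of 16320 genes were at that unadjusted level. The interaction had 11 calls with DESeq2 and 1475 without libraries high in Plin1, which leaves 3 neutral-cue vehicle libraries. The neutral-cue comparison had 349 calls with DESeq2, 1 with voom, 31 when libraries high in Slc17a6 were left out and 2761 when those high in Plin1 were. The cause was not tested. Signs turned for 19 of the 80 printed genes: with DESeq2 Slc17a7 (-0.0324). With voom they were Ca3 (0.0854), Plin1 (0.0278), Pparg (0.261), Mgll (-0.0332), Pdyn (-0.0319) and Drd2 (-0.148). With covariates they were Htr1a (-0.152), Penk (0.126), Drd1 (0.144), Slc17a6 (-0.377) and Adora2a (0.193). Without libraries high in Slc17a6 they were Penk (0.0187), Drd1 (0.0236) and Adora2a (0.0271). Without those high in Alb they were Alb (-0.0197), Mgll (-0.0358), Pdyn (-0.124), Egr1 (-0.117) and Drd2 (-0.263). Without those high in Plin1 they were Ca3 (0.133), Col3a1 (-0.0321), Pparg (0.235), Mbp (0.0227), Npas4 (-0.177), Mgll (-0.00519), Arc (-0.170), Pdyn (-0.0192), Egr1 (-0.0344) and Drd2 (-0.0653). Over removals of 1 library the log2 difference ran from -0.0799 to 2.04 for Slc17a7, -0.0633 to 1.27 for Col3a1, -0.129 to 0.42 for Npas4, -0.0607 to 0.734 for Htr1a, -0.212 to 0.0292 for Penk, -0.0501 to 0.119 for Mgll, -0.0259 to 0.346 for Arc, -0.205 to 0.0486 for Drd1, -0.0701 to 0.176 for Pdyn, -0.0206 to 0.0484 for Cox4i1, -0.415 to 1.505 for Slc17a6, -0.203 to 0.0487 for Adora2a, -0.0794 to 0.128 for Egr1 and -0.133 to 0.111 for Drd2. No list median moved by more than the SD between libraries of its mean log2 CPM. That limit is wide and says little on stability, since within it 16 of 28 medians turned sign in at least 1 setting. No paired analysis was possible because the labels give no replicate numbers shared between groups.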
